A study of Mus musculus with 12 samples.

Results

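The genes described here encode the voltage-gated calcium and sodium channels. They were taken from the deposited tables by symbol, as every entry that begins with Cacna, Cacnb or Cacng, or with Scn, a number and the letter a or b. The rule found 40 of the 23983 entries in each table, 20 that encode a pore and 20 that encode an auxiliary subunit. RNA of cortex and of subcortex was sequenced at postnatal day 0 in 12 libraries, 3 in each of 4 groups. The control groups, written here as WT, are labelled wild type. The knockout groups, written as vKO, are labelled as a Reck vascular knockout with the genotype Reck flex2/Δex1 and Tie2Cre, and the strain is given as mixed for all groups. Tie2Cre is known to act in endothelial cells and also in blood lineages, so the deletion need not be restricted to vessels. The labels do not say whether a library is 1 animal or whether cortex and subcortex came from the same brains, so the authors' p-values may measure a spread that is partly technical.

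Each deposited value is 1 FPKM (fragments scaled to transcript length and to the mapped total) per gene and group. No replicate values were used here, so no SD can be given, the depth is unknown, and the order of levels is a description. Rose and fell are used only of genes whose q-value was under 0.05 in the authors' deposited table. Changes are given as log2((vKO FPKM + 1)/(WT FPKM + 1)), which is negative where vKO was lower and understates changes of genes with low values. RNA came from whole tissue, in which fewer cells of a type and less RNA per cell cannot be told apart. For Reck, the targeted gene, the values were 2.91 FPKM (WT) and 3.23 (vKO) in cortex, and 2.37 and 3.49 in subcortex. These values cover the whole gene in all cells and do not check the deletion. Xist, transcribed from the inactive X chromosome, had 0.0417 FPKM in WT against 18.6 in vKO cortex, and 0.0369 against 10.2 in subcortex, so sex and genotype overlap in both comparisons and cannot be told apart.

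Voltage-gated channels open when the membrane depolarises. A calcium channel of the high-voltage-activated type has a large pore-forming alpha1 protein, an intracellular beta subunit and an extracellular alpha2delta subunit. These channels trigger transmitter release, shape firing and carry calcium signals to the nucleus, while the low-voltage-activated T-type channels need no auxiliary subunit. Sodium channels start the action potential, with 1 large alpha protein as the pore and small beta subunits with a single membrane span. Most proteins of the gamma family are in fact partners of AMPA-type glutamate receptors, the TARPs, rather than parts of calcium channels. The pore genes have long transcripts and most auxiliary genes short ones. Over the members tested in cortex, the median length of the longest protein-coding transcript (GENCODE M21) was 9248 bases for pore subunits, with a range of 7926 to 14921, and 3695 bases for auxiliary subunits, with a range of 1249 to 8225.

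Of the 40 genes, 31 reached 1 FPKM in 1 or more groups, and these are the 31 that the authors tested in cortex. The cortex calls of the authors' deposited table comprise 19 members that fell and 1 that rose. Of all 13594 genes tested there, 11.3% were called lower and 8.15% higher. In subcortex 29 members were tested and none was called in either direction by the authors' deposited table, against 0.262% of 13735 genes called lower and 0.451% called higher. Before adjustment, 22 members had a p-value under 0.05 in cortex and 1 in subcortex in the authors' deposited table, beside 32.1% and 6.31% of all tested genes. The difference between the tissues was not tested. In cortex 16 of the 31 tested members, out of the 19 that fell, did so at least 1.5-fold in the FPKM ratio. Over all 13594 tested genes, 929 of the 1537 called lower fell by that much. These were 6.83% of the tested genes, and 4.35% were higher by that much. At a q-value under 0.01 in the authors' deposited table, 15 members fell and none rose, beside 7.28% and 4.01% of all tested genes. The 3 that fell by less than 1.5-fold were Scn3a, Cacng8 and Cacnb4.

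**Figure D1:**
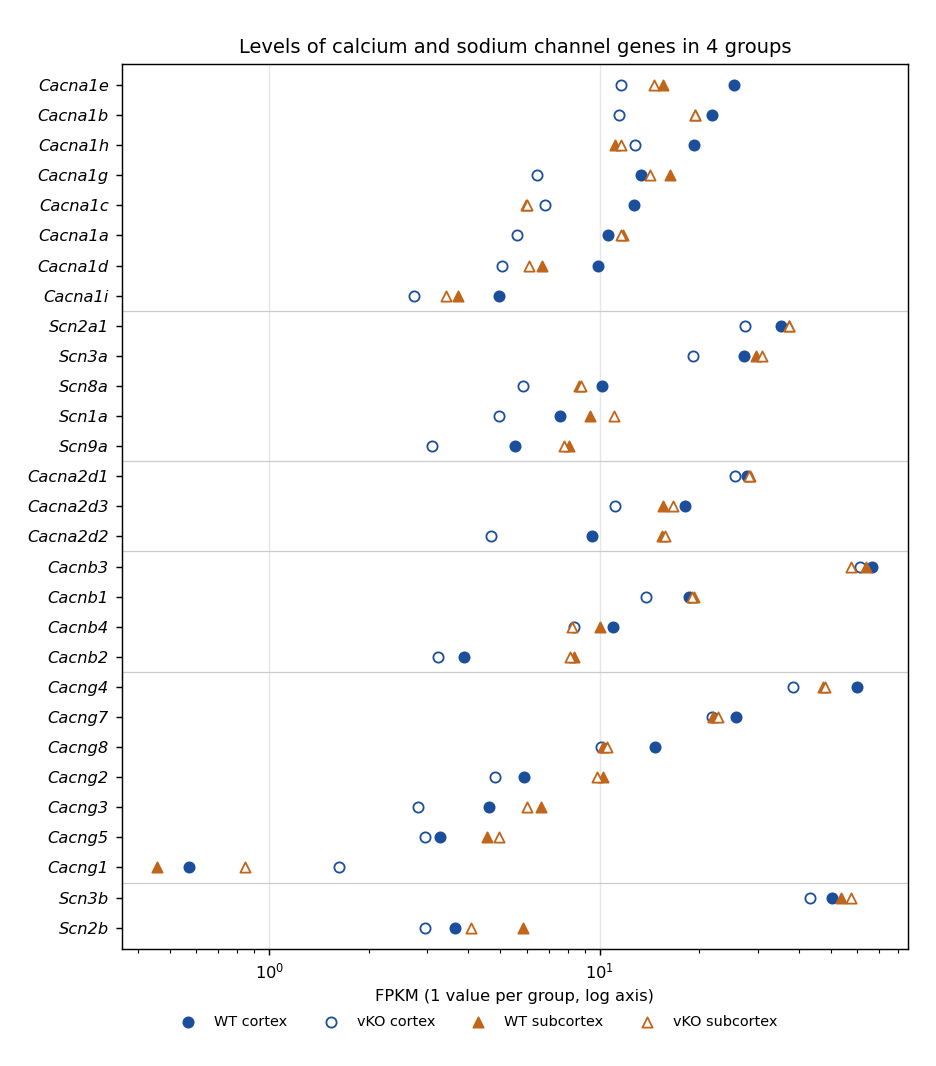
FPKM of 29 channel genes with at least 1 FPKM in a group, on a log axis, with genes in families separated by lines and ordered by WT cortex. Circles are cortex and triangles subcortex, filled for WT and open for vKO, 1 authors' value per group with no error. In the calcium pore block at the top the open circles lie left of the filled ones for all 8 genes, while filled and open triangles lie close together.

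All 8 tested calcium pore genes fell in cortex, by the authors' deposited table. Cacna1e, which encodes the R-type channel, was the highest of them in WT cortex at 25.4 FPKM and dropped to 11.5 in vKO, with 15.5 in WT and 14.6 in vKO subcortex. It fell by 1.07 on the log2 scale, the largest fall of any member, where the authors' deposited table gives q = 0.000806. Its vKO cortex value was the lowest of the 4 groups. Cacna1b, the N-type channel of presynaptic terminals, went from 21.9 to 11.4 FPKM in cortex (-0.88) and was 19.4 in both subcortex groups. Cacna1a, the P/Q-type channel of presynaptic terminals, went from 10.6 to 5.63 FPKM (-0.81), with 11.8 and 11.6 in subcortex. For these genes of the presynaptic class the WT cortex and both subcortex values were all above the vKO cortex value. The smallest p-value listed in the authors' deposited table, 5e-05, was shared by 11 members, and 7 of the 8 calcium pore genes were among them.

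The L-type genes, whose channels couple activity to gene expression, changed by similar amounts. Cacna1c went from 12.7 to 6.84 FPKM in cortex (-0.81), and stood at 5.99 and 6.01 in subcortex. Cacna1d stood at 9.90 and 5.04 FPKM in cortex (-0.85) and at 6.67 and 6.12 in subcortex. Cacna1c in vKO cortex was therefore still above both subcortex values, while Cacna1d was below them. Among the T-type genes, Cacna1g fell in cortex from 13.4 to 6.46 FPKM (-0.94), with 16.3 in WT and 14.1 in vKO subcortex. Cacna1i fell from 4.97 to 2.74 FPKM (-0.67), with 3.72 and 3.43 in subcortex. Cacna1h had the smallest fall of the calcium pore genes, from 19.2 to 12.7 FPKM (-0.56), with 11.1 and 11.6 in subcortex. The authors' deposited table gives q = 0.00202 for it. After the change Cacna1h was the highest calcium pore gene in vKO cortex, where Cacna1e was the highest in WT.

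The summed FPKM of the calcium pore genes was 118 in WT and 62.5 in vKO cortex, and 90.6 and 87.05 in subcortex. The shares within this sum moved little between the cortex groups. The presynaptic and R-type genes (Cacna1a, Cacna1b and Cacna1e) made up 49.0% in WT and 45.7% in vKO cortex, the L-type genes 19.3% and 19.1%, and the T-type genes 31.8% and 35.1%. The gene shares that differed most were those of Cacna1e, at 21.5% and 18.5%, and of Cacna1h, at 16.3% and 20.4%. No error can be given for these shares. The remaining calcium pore genes were Cacna1f, the channel of photoreceptor terminals, and Cacna1s, the channel of skeletal muscle. Both were at or under 0.128 FPKM in every group and were not tested.

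**Figure D2:**
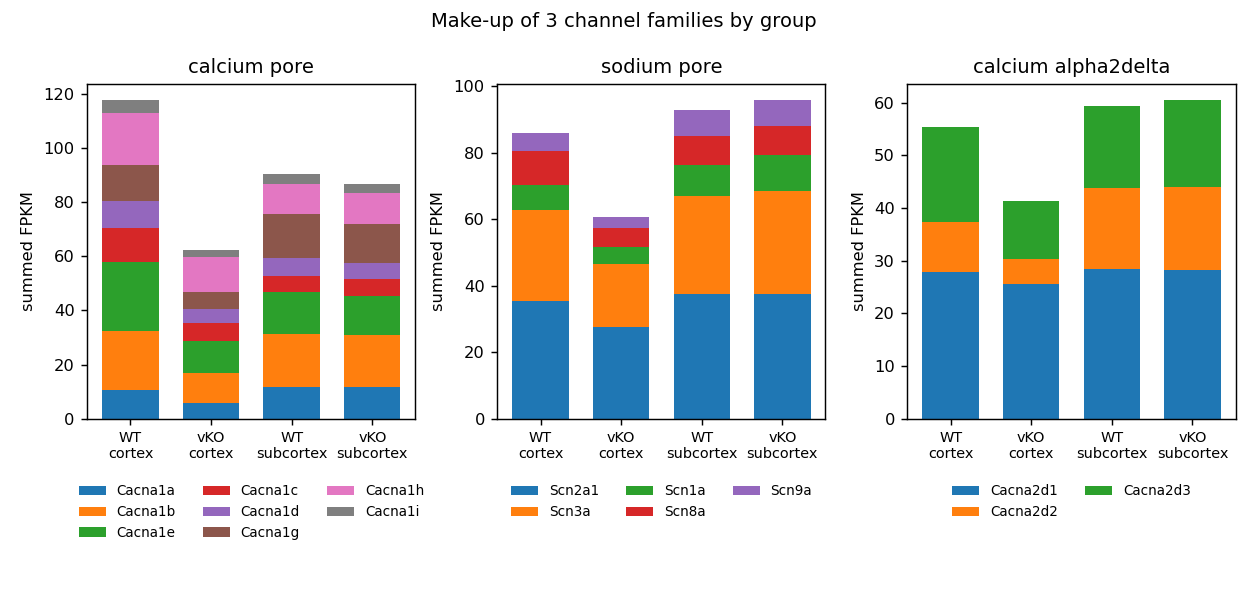
Summed FPKM of the calcium pore, sodium pore and alpha2delta genes named in the key, in WT and vKO cortex and subcortex, stacked by gene, 1 authors' value per gene and group with no error. The calcium pore bar of vKO cortex reaches about 62 against 118 in WT cortex, and in the alpha2delta panel the Cacna2d1 block keeps nearly the same height in all groups.

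Of 6 sodium pore genes tested in cortex, 5 fell and 1 was not called, by the authors' deposited table. Scn2a1 (now Scn2a) and Scn3a, the sodium channels that prevail in the newborn brain, were the most abundant. Scn2a1 was the pore gene that was not called, with 35.4 FPKM in WT against 27.6 in vKO cortex (-0.35; q = 0.0697, authors' deposited table). It stood at 37.3 and 37.4 FPKM in subcortex. Scn3a fell from 27.3 to 19.1 FPKM (-0.49), with 29.6 and 31.0 in subcortex (q = 0.00691 for cortex, authors' deposited table). Scn8a, which becomes the main channel of the axon initial segment and of nodes in later life, fell from 10.2 to 5.84 FPKM (-0.71), with 8.62 and 8.77 in subcortex. Scn1a, the channel of inhibitory interneurons, fell from 7.56 to 4.94 FPKM (-0.53), with 9.33 and 11.04 in subcortex. Scn9a, best known from pain-sensing neurons, fell from 5.52 to 3.11 FPKM (-0.66), with 8.05 and 7.78 in subcortex. For these 5 genes (Scn1a, Scn2a1, Scn3a, Scn8a and Scn9a) vKO cortex was the lowest of the 4 groups.

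Scn2a1 and Scn3a together accounted for 71.5% of the sodium pore sum in WT cortex and for 75.6% in vKO cortex, and for 71.2% and 70.4% in subcortex. The ratio of Scn2a1 to Scn3a was 1.30 in WT and 1.44 in vKO cortex. The share of the later-maturing Scn1a and Scn8a was 20.2% in WT and 17.5% in vKO cortex. The whole sum went from 87.7 to 61.7 FPKM in cortex and was 93.99 and 97.1 in subcortex. The 4 other sodium pore genes were low. The channels of peripheral sensory neurons, Scn10a and Scn11a, the muscle channel Scn4a and the atypical Scn7a were at or under 0.380 FPKM in every group and were not tested.

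Of 17 auxiliary genes tested in cortex, 6 fell, 1 rose and 10 were not called, by the authors' deposited table. The alpha2delta genes, whose proteins bring calcium channels to the surface and bind gabapentin in some cases, differed among themselves. Cacna2d2 had 9.46 FPKM in cortex of WT and 4.68 in that of vKO, beside 15.4 and 15.7 in subcortex. It fell by 0.88 on the log2 scale, and Cacna2d3 fell by 0.66, from 18.1 to 11.1 FPKM, with 15.5 and 16.6 in subcortex. Cacna2d1 was 27.8 and 25.6 FPKM in cortex and 28.4 and 28.2 in subcortex, and was not called (-0.12; q = 0.627, authors' deposited table). Its share of the alpha2delta sum was 50.1% in WT and 61.7% in vKO cortex. Cacna2d1 has the longest transcript of this family, 7436 bases, against 5807 for Cacna2d2 and 3695 for Cacna2d3, so within the family the order of change was not the order of length. Cacna2d4, a gene of the retina, was at or under 0.191 FPKM in all groups.

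Sequence upstream of the start site is shown for a pair of alpha2delta genes that behaved differently and for 1 pore gene, picked after their values were seen. RefSeq promoter windows (GRCm38.p6) matched 30 of the 40 genes, with 41 windows. The 250 bases upstream of the start are shown for Cacna2d1 (chr5:15934441-15934690, plus strand), not called in cortex, and for Cacna2d3 (chr14:29721865-29722114, minus strand) and Cacna1b (chr2:24763153-24763402, minus strand), which fell. Capitals mark the GC box GGGCGG or the CCAAT box on either strand.
Cacna2d1: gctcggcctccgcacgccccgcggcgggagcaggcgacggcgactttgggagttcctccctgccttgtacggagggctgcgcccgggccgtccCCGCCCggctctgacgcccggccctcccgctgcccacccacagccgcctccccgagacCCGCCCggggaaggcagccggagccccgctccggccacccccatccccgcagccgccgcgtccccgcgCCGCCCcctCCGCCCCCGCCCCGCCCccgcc
Cacna2d3: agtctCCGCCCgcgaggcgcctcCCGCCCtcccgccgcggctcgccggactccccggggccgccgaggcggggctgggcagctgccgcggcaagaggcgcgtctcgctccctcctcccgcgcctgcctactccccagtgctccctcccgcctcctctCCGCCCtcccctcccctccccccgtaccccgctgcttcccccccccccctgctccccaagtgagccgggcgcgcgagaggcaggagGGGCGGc
Cacna1b: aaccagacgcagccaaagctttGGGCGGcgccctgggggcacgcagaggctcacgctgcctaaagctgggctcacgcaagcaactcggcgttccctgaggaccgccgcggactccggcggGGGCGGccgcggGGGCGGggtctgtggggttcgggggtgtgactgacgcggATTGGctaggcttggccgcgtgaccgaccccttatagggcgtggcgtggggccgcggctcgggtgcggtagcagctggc
All 3 windows were rich in G and C, at 82.4%, 80.0% and 72.0%. The median was 52.4% over all windows, 53.2% over those of pore genes and 62.0% over those of auxiliary genes, so the 3 are not typical of the channel genes. GGGCGG occurred without overlap 5 times in the window of Cacna2d1, 4 times in that of Cacna2d3 and 3 times in that of Cacna1b. The window of Cacna2d2, which fell, held 1 copy at 74.4% G and C and is not shown. The windows of Cacna1e, Cacna1i, Scn1a, Scn8a, Scn9a, Cacng3 and Cacng8, which also fell, held none. Cacna1c, Cacna1d and Cacnb4, which fell too, had a window with 4, 3 and 5 copies and others without. Among genes tested and not called, Cacnb1, Cacnb2, Cacnb3, Cacng5 and Cacng7 had a window with a copy. Cacng2, Scn2a1 and Scn2b, also not called, had none. Over all 32851 windows of the same length 32.7% held GGGCGG, and 36.6% of the 41 channel windows did. CCAAT was in 33.8% of all windows and 24.4% of channel windows, and TATAAA in 12.4% and 4.88%. A match is a description of these letters, not of a binding site.

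The beta subunits bind the pore inside the cell and set how much of it reaches the membrane. Of the 4 genes, 1 fell in cortex by the authors' deposited table. Cacnb4 went from 10.95 to 8.36 FPKM (-0.35; q = 0.0489, authors' deposited table), and stood at 10.01 and 8.26 in subcortex. Cacnb3, the most abundant, had 66.6 FPKM in cortex of WT and 61.4 in that of vKO, and 64.1 and 57.7 in subcortex. Cacnb1 was 18.6 and 13.8 FPKM in cortex (-0.40), just outside the threshold (q = 0.0556, authors' deposited table), and 19.3 and 19.0 in subcortex. Cacnb2 was 3.88 and 3.23 FPKM in cortex and 8.36 and 8.09 in subcortex. The summed beta FPKM per summed calcium pore FPKM was 0.847 in WT and 1.39 in vKO cortex, and 1.12 and 1.07 in subcortex. The ratio of alpha2delta to calcium pore sums was 0.470 and 0.663 in cortex and 0.657 and 0.698 in subcortex. Both ratios set genes with mostly shorter transcripts over genes with long ones. Changes in cortex moved with transcript length over all genes (below), and the part of length in these ratios was not tested.

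Among the 7 gamma genes tested in cortex, the authors' deposited table calls 3 lower and 1 higher. Cacng4, a TARP of the immature brain, was the most abundant and fell from 60.1 to 38.3 FPKM (-0.64), with 47.4 and 47.9 in subcortex. Cacng8, a TARP of forebrain AMPA receptors, fell from 14.7 to 10.1 FPKM (-0.50), with 10.3 and 10.5 in subcortex. Cacng3, also a TARP, fell from 4.62 to 2.81 FPKM (-0.56), with 6.64 and 6.02 in subcortex. In the authors' deposited table their q-values were 0.00144, 0.0281 and 0.0243. The other TARP genes were not called. Cacng2, which encodes stargazin, had 5.90 and 4.82 FPKM in cortex and 10.2 and 9.82 in subcortex. Cacng7 had 25.7 and 21.9 FPKM in cortex and 22.0 and 22.8 in subcortex, and Cacng5 had 3.28 and 2.95 in cortex and 4.56 and 4.94 in subcortex.

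Cacng1, the gamma subunit of the calcium channel of skeletal muscle, was the member that rose. Its FPKM was 0.570 (WT) and 1.63 (vKO) in cortex (0.74; q = 0.0299, authors' deposited table), and at 0.458 and 0.845 in subcortex, where it was not tested. At a q-value threshold of 0.01 it is not called. Skeletal muscle genes moved with it in cortex. Of 7 such genes (Acta1, Myh3, Myh8, Ckm, Tnnt3, Des and Mylpf), 5 were tested in cortex. The authors' deposited table has 3 of these higher, beside 8.15% of all tested genes. The median transcript of these 5 was 1446 bases, and 20.7% of tested genes with 1201 to 1479 bases were called higher. Their median log2 ratio was 1.13, and 1.09 with the length trend removed. The summed FPKM of the 7 was 2.95 in WT and 16.3 in vKO. The largest parts of the vKO sum were Acta1 (6.11) and Mylpf (5.22), and Mylpf was not called (q = 0.143, authors' deposited table). In subcortex 2 were tested, none was called, and the sums were 7.17 and 6.76 FPKM. None of the 7 was listed at 0 in either group of a tissue. The muscle pore genes Cacna1s and Scn4a stayed at or under 0.128 FPKM throughout. The part of muscle RNA in the Cacng1 result was not tested. Cacng6, the other gamma gene of muscle, was at or under 0.114 FPKM, and was listed at 0 in WT subcortex.

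The sodium channel beta genes, whose proteins modulate gating and act in cell adhesion, had no call among 3 tested in either tissue. Scn3b, the most abundant, had 50.5 FPKM in cortex of WT and 43.2 in that of vKO, and 53.6 and 57.5 in subcortex. Scn2b was 3.65 and 2.97 FPKM in cortex and 5.87 and 4.07 in subcortex. The subcortex difference of Scn2b (-0.44) had the smallest p-value of any member there, 0.00525, and q = 0.287 in the authors' deposited table. Scn4b, a subunit of mature neurons, was at or under 0.320 FPKM in every group. The summed sodium beta FPKM per summed sodium pore FPKM was 0.712 in WT and 0.889 in vKO cortex, and 0.791 and 0.793 in subcortex. Here too shorter transcripts are set over longer ones, and the part of length was not tested.

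**Figure D3:**
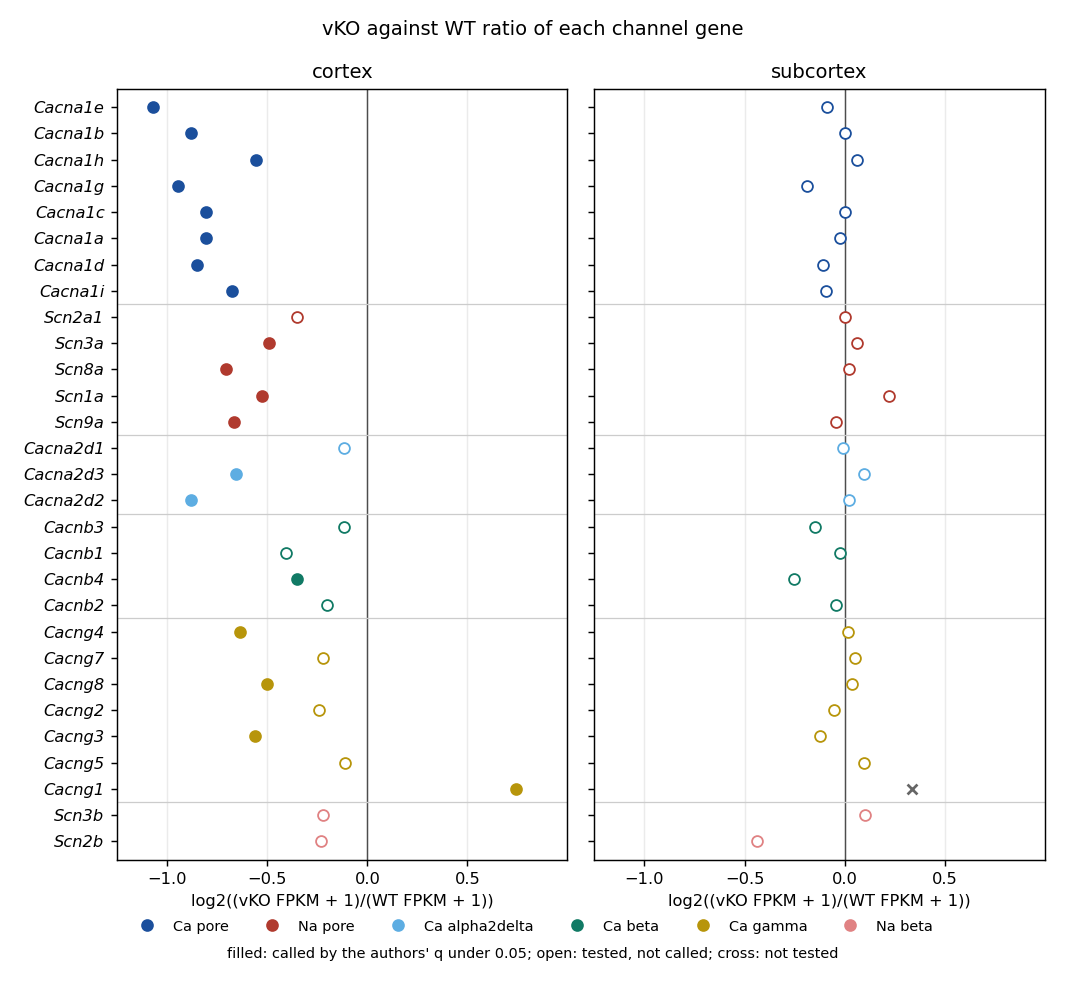
log2((vKO FPKM + 1)/(WT FPKM + 1)) of the same 29 genes in cortex (left) and subcortex (right), grouped by family. Filled points were called by the authors' q-value, open points were tested and not called, and crosses were not tested. In cortex 12 of the 13 pore genes drawn are filled and left of 0, and Cacng1 is the 1 filled point right of 0, whereas no point is filled in subcortex.

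In cortex the pore subunits had a median log2 ratio of -0.69 (14 tested, 13 lower and 0 higher by the authors' deposited table) and the auxiliary subunits one of -0.23 (17 tested, 6 lower and 1 higher). The median of all tested genes was 0.00. Calcium pore genes had a median of -0.83 and sodium pore genes one of -0.51. Medians of the auxiliary families were -0.66 for alpha2delta, -0.28 for beta, -0.24 for gamma and -0.22 for sodium beta. In subcortex the medians were 0.00 for both pore and auxiliary subunits, and for all tested genes, and single log2 ratios ran from -0.44 to 0.22.

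Transcript length moved with these ratios. Across all tested genes with a length, the cortex ratio had a Spearman correlation with transcript length of -0.551 (13449 genes), and the subcortex ratio one of 0.02 (13597 genes). Across the channel genes it was -0.631 in cortex (31 genes) and -0.138 in subcortex (29 genes). These are descriptions, since all genes of a tissue share the same libraries. Within the pore genes the cortex correlation was -0.218 (14 genes) and within the auxiliary genes -0.270 (17 genes). With the length of the coding part in place of the transcript these were -0.622 and -0.469, a measure added after the data were seen. Of the 772 tested genes with transcripts of 7926 to 14921 bases, the range of the pore genes, 50.4% were called lower in cortex by the authors' deposited table, with a median of -0.38. Among the pore genes 13 of 14 were called.

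Each ratio was also set against the median of the tested genes in the same of 20 length bins. With that median removed, the pore genes had a median of -0.27 and the auxiliary genes one of -0.16 in cortex. Calcium pore genes stood at -0.45 and sodium pore genes at -0.15. Cacna1e kept -0.65, Cacna1g -0.64, Cacna1a -0.50 and Cacna1b -0.46. Cacna1d was at -0.43, Cacna1c at -0.38, Cacna1h at -0.26 and Cacna1i at -0.25. Among sodium pore genes Scn8a was at -0.28, Scn9a at -0.24, Scn1a at -0.23, Scn3a at -0.07 and Scn2a1 at 0.07. The gap between the families was smaller with length and GC content removed together, at -0.37 for calcium and -0.25 for sodium pore genes. Cacna1e was then at -0.64, Cacna1d at -0.42, Cacna1b at -0.41 and Cacna1g at -0.39. Cacna1c was at -0.34, Cacna1a at -0.26, Cacna1i at -0.12 and Cacna1h at -0.01. Scn9a was at -0.42, Scn1a at -0.28, Scn3a at -0.26, Scn8a at -0.24 and Scn2a1 at -0.10, so the 2 families overlapped. Of the 13 pore genes called lower, 12 lay below the median of genes of their length. Over all members that fell this held for 18 of 19, and the calls that kept a negative sign made up 10.9% of all tested genes with a length and a GC content. Genes called lower mostly keep their sign, as 1470 of the 1537 called among all tested genes did. These counts therefore do not set the channel genes apart. The last bin runs from 8390 to 123179 bases, so it compares the longest pore genes with genes of a wide range of lengths.

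Several auxiliary genes with short transcripts departed from the trend. Cacng8 (1897 bases), Cacng3 (2777) and Cacng4 (3500) fell, although genes of 1897 to 3500 bases had a median of 0.08 and 4.31% of the 4436 tested were called lower by the authors' deposited table. With the length trend removed they stood at -0.68, -0.60 and -0.62. Cacna2d3 (3695 bases) and Cacna2d2 were at -0.64 and -0.71, as low as the calcium pore genes. Cacnb4, with a transcript of 8225 bases and a coding part of 1557, was at -0.05. Cacna2d1 was at 0.18, above genes of its length. Cacng1 (1249 bases) was at 0.47, and 20.7% of the 672 tested genes of its bin rose by the authors' deposited table. These 3 gamma genes were singled out after their values had been seen.

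**Figure D4:**
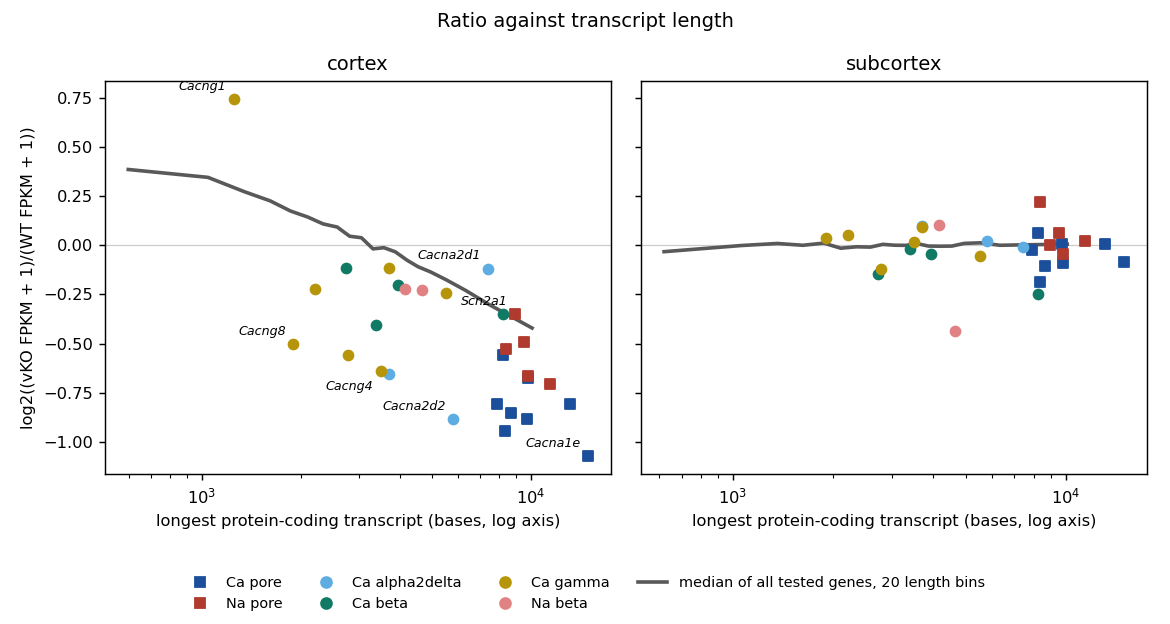
log2((vKO FPKM + 1)/(WT FPKM + 1)) of tested channel genes against the length of the longest protein-coding transcript (bases, log axis) in cortex and subcortex. Squares are pore and circles auxiliary genes, colours mark families, and the line joins the medians of all tested genes in 20 length bins. In cortex the line falls from 0.38 in the shortest bin to -0.42 in the longest, and most channel genes lie below it. In subcortex the line stays near 0 and the points run from -0.44 to 0.22.

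Genes of proteins that work with these channels were taken as a list of 39, of which 38 were found. For cortex the authors' deposited table tests 35 and calls 16 lower and 2 higher, beside 11.3% and 8.15% of all tested genes. The tested partners had a median transcript of 6275 bases, and 13 of the called ones had at least 6000. Of all tested genes with 5867 to 6846 bases, 25.6% were called lower, and of those with 8390 to 123179 bases, 55.9%. The median ratio of the tested partners was -0.29, and -0.21 with the length trend removed. The smallest q-value was shared by 9 partners, of which those with the largest falls are named. Ank2 and Ank3, ankyrins that anchor sodium channels to the membrane skeleton, fell from 121 to 62.1 and from 55.2 to 28.2 FPKM. Their transcripts have 14305 and 9963 bases. Sptbn4, the spectrin of the axon initial segment (8747 bases), fell from 12.9 to 6.48 FPKM. Gem, an inhibitor of calcium channels that binds their beta subunit, rose from 0.940 to 2.18 FPKM, and Calm2, a calmodulin gene, from 592 to 827. Fgf13, an intracellular partner of sodium channels picked after its value was seen, fell from 27.8 to 17.8 FPKM (-0.61; -0.71 with the length trend removed), with a transcript of 2499 bases. Rest, a repressor of neuronal channel genes also picked in this way, was 3.69 and 3.62 FPKM and was not called. In subcortex none of 34 tested was called by the authors' deposited table, and Calm2 and Calm3, the most abundant, were 898 and 807 and 659 and 639 FPKM.

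Markers of cell types were read beside the channel genes, and sums and medians of a list could differ in direction. Over all tested genes 11.3% were called lower and 8.15% higher in cortex, and 0.262% and 0.451% in subcortex. Of 9 pan-neuronal genes 1 fell in cortex by the authors' deposited table, Dcx, which has a transcript of 9074 bases. The list's median log2 ratio was -0.11, while its sum was 2250 FPKM in WT and 2380 in vKO, with the largest part from Tubb3 (1206 and 1377). Of 6 genes of inhibitory neurons 4 fell and none rose, with a median of -0.50 and sums of 124 and 89.3 FPKM. Of 6 genes of cortical excitatory neurons 2 fell and 1 rose (Neurod6, 98.3 to 168 FPKM), with a median of -0.32 and sums of 254 and 284. Of 7 genes of subcortical regions 4 were tested in cortex and 2 of these fell, Tcf7l2 from 4.71 to 1.07 FPKM and Lhx9 from 3.76 to 2.29, with a median of -0.32. Of 5 genes of radial glia and astrocytes 2 rose, Fabp7 and Aldoc, with a median of 0.37. Of 6 microglial genes 5 rose, with a median of 1.22 and sums of 46.5 and 115 FPKM. Of 5 erythroid genes 3 were tested and 1 rose, Alas2, and the sums of 20.3 and 685 FPKM rest mainly on Hba-a2 (14.2 and 613), which was not called (q = 0.643, authors' deposited table). Of 5 endothelial genes 2 fell, Cldn5 and Kdr, with a median of -0.19 and sums of 75.4 and 48.8 FPKM. With the length trend removed, the cortex medians were 0.02 for pan-neuronal, -0.48 for inhibitory, -0.31 for cortical excitatory and -0.32 for subcortical genes. They were 0.07 for radial glia and astrocytes, 0.92 for microglia and -0.08 for endothelial genes. None of 4 genes of the oligodendrocyte lineage, 3 of the choroid plexus and 1 tested of sensory neurons was called in cortex. In subcortex the authors' deposited table calls 2 endothelial genes higher, Pecam1 and Cdh5, and no gene of the other lists. Hoxb5, of the subcortical list, was listed at 0 in both cortex groups, and no other marker was at 0 in any group. The part of such shifts in the channel results was not tested.

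The tissues are in separate tables that may have been normalised separately, so their levels are set side by side without a test. In WT the calcium pore genes had a median log2 ratio of cortex over subcortex of 0.42, with 6 of 8 higher in cortex, beside -0.05 over the 13167 genes tested in both tables. Cacna1c showed the largest of these, 12.7 FPKM in cortex and 5.99 in subcortex. In vKO the median of the calcium pore genes was -0.28, with 2 of 8 higher in cortex (Cacna1c and Cacna1h), and that of all genes -0.02. Sodium pore genes had medians of -0.11 in WT and -0.67 in vKO. Several auxiliary genes were higher in WT subcortex than in WT cortex: Cacna2d2 (15.4 and 9.46 FPKM), Cacnb2 (8.36 and 3.88) and Cacng2 (10.2 and 5.90). Cacng4 and Cacng8 were higher in WT cortex, at 60.1 and 14.7 FPKM against 47.4 and 10.3.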

How the data were processed

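Total RNA of 12 libraries, 3 per group, was sequenced after a stranded TruSeq preparation, per the labels' protocols. Cuffdiff, Cufflinks 2.2.1, HISAT2 2.0.1 and the build mm10 are named in the submitters' processing notes, without an order. The deposited tables, 1 per tissue, hold 1 FPKM value per gene and group, computed by the authors from all replicates. The tables mark the groups by codes, in which the letter W was taken to stand for WT and M for vKO. The p-values and q-values are the authors' own, per the file headers, adjusted over the genes marked as tested. The limma fit planned for replicate values was not run, since only group values were used. Ratios were recomputed from FPKM with a pseudocount of 1.

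The members and lists were chosen with earlier results of these data known. Members with at least 1 FPKM in a group are named, apart from some that enter the counts and medians but are not reported here. Of the partner list, up to 3 called genes per direction with the lowest q-value are named, with ties broken by the size of change after the values were seen, or otherwise the 2 with the highest FPKM. Transcript length and GC content are those of the longest protein-coding transcript in GENCODE M21 (GRCm38, the same build), found for all 40 members (Scn2a1 by its synonym) and for 13446 (cortex) and 13594 (subcortex) tested genes. A length without a GC content was found for 3 more, which enter the correlations with length only. The annotation and the strand setting used by the authors are not given in the sources used here. By deposited coordinates, 9 members share a locus with an overlapping entry, so reads may be split between them. An overlapping entry was found on the same strand in GENCODE only for Scn2b (Amica1) and Cacnb2 (the predicted gene Gm13315). The length trend was the median ratio of 20 length bins, tested on simulated data. Alternatives were a pseudocount of 0.1, a q-value under 0.01, a 1.5-fold minimum, an FPKM minimum of 1, centring, and removal of length and GC trends. Python 3.11.15, numpy 2.4.6, pandas 2.3.3 and matplotlib 3.10.9 were used.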

Additional observations from a re-analysis of the deposited data

How the results depend on the processing

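No paired analysis was possible because the tables hold 1 value per group, and leaving out replicates could not be run for the same reason. Over 10 results, 47 of 54 alternative values stayed within 1.5 times (counts) or 0.1 (medians and correlations) of the reported value, and 7 moved further. Many of the 47 could not move. The subcortex counts were 0 and had only stricter alternatives, and the FPKM minimum removed no tested member. The tally is therefore not a measure of robustness. At a q-value under 0.01 in the authors' deposited table, 0 members rose in cortex in place of 1, and 15 fell in place of 19. The cortex median of the pore subunits, -0.69 as reported, was -0.82 with a pseudocount of 0.1, -0.27 with the length trend removed, -0.27 with length and GC content removed, and -0.28 with a running median over the genes nearest in length, an alternative chosen after seeing the data. It stayed negative in all of these. The cortex correlation of member ratios with length, -0.631 as reported, was -0.406 with the median transcript length of each gene and -0.748 with coding length, also chosen after seeing the data. For the 19 members that fell, 18 kept a negative ratio with the length trend removed, as did 1470 of the 1537 called lower among all tested genes. The depth of the libraries is unknown, so the precision of low values such as those of Cacng1 cannot be given.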

Other observations

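Of the 40 channel genes, 18 lie in 7 groups in which neighbours are under 200 kb apart in mm10, and neighbours did not share 1 ratio in cortex. On chromosome 11, between 107703218 and 107915055, Cacng1 had a log2 ratio of 0.74, Cacng4 of -0.64 and Cacng5 of -0.11. On chromosome 7, between 3336585 and 3434940, Cacng8 had -0.50 and Cacng7 -0.22, while Cacng6 was too low to be tested. On chromosome 2, Scn3a and Scn2a1 (65457118 to 65767447) had -0.49 and -0.35, and Scn1a and Scn9a, in a group with the untested Scn7a (66270782 to 66784910), had -0.53 and -0.66.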
